A study of Oryza sativa Japonica Group with 18 samples.

Results

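The effect of losing GIGANTEA (GI) was compared between root and shoot of rice (Oryza sativa, cultivar Nipponbare). For each probe set, the difference between the gi knockout and wild type (WT) in shoot was subtracted from the same difference in root, a contrast called the interaction here. A positive interaction means that the gi effect was higher in root than in shoot, and a negative one that it was lower in root. The contrast uses 12 of the 18 arrays in the series, 3 each of WT root, gi root, WT shoot and gi shoot. The other arrays are of a pho2 knockout and enter only where stated. WT plants carry both genes intact, and the gi plants carry a knockout of OsGIGANTEA in the Nipponbare background. All plants were 21 days old, grown for 2 days of germination in tap water and then for 19 days in hydroponic culture with sufficient phosphate (Pi), under a 12 h photoperiod at 30 °C by day and 22 °C by night. The sources used here do not state the type of the mutant allele, the number of independent lines, the hour of harvest or whether replicates were separate plants. The p-values therefore rest on a spread between arrays that may be technical.

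GI is a large plant protein that links the circadian clock to flowering. In Arabidopsis it works with F-box proteins that sense blue light and mark other regulators for destruction, and in rice it acts in the pathway that reads day length. Roots and shoots of one plant have different tasks, such as mineral uptake in roots and photosynthesis in leaves, and clock components also differ between organs. The comparison asks which transcripts depended on GI in one organ more than in the other, or in the opposite direction.

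Signals are deposited probe set intensities, and all log2 values are differences of log2(signal + 16). Array medians lay between 52.3 and 70.2 signal units and the trimmed mean of each array was about 500. Pearson's r between replicates, taken across probe sets, was 0.9824 to 0.9856 for root and 0.9535 to 0.9712 for shoot. The median SD between replicates was 0.15 (log2) in WT root, 0.16 in gi root, 0.18 in WT shoot and 0.22 in gi shoot. Tissue labels were checked with 8 shoot markers and 9 root markers. Summed over the shoot markers, signal was 7221 to 8072 on WT root arrays and 11780 to 18610 on gi root arrays, against 167400 to 222900 on the shoot arrays. Summed over the root markers, it was 47150 to 52670 on the root arrays, 5591 to 7559 in WT shoot and 3165 to 3524 in gi shoot. The 12 arrays thus had the marker levels of their labelled tissue, but the gi root arrays carried more shoot marker signal than the WT root arrays, and the gi shoot arrays less root marker signal in sum than the WT shoot arrays. The lower sum in gi shoot came from 4 of the 9 root markers, NAAT1, HAK1, IRT1 and Lsi1, all called lower there, while the other 5 had higher means in gi shoot and were not called. Without NAAT1, which was brighter in WT shoot than in WT root, the sum was 4181 to 4526 in WT shoot and 3044 to 3328 in gi shoot. The 3-prime to 5-prime log2 ratio of the ubiquitin control, a sign of RNA quality, was 0.05 ± 0.02 in WT shoot and 0.18 ± 0.01 in gi shoot, and that of cyclophilin 1.2 ± 0.07 in WT root and 1.05 ± 0.04 in gi root (SD, n = 3). The part of these ratios in the gi effects was not tested.

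GI itself was low in both gi tissues. WT root read 7236, 7007 and 7393, and gi root 1.36, 1.71 and 2.19. WT shoot read 11520, 9868 and 10889, and gi shoot 44.6, 5.43 and 14.6. The gi arrays lay far below the WT arrays in each tissue. With 5 of the 6 gi values below the pseudocount of 16, the sizes of the loss in root and shoot cannot be compared.

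Of 34355 probe sets tested, 3892 (11.3%) were called in the interaction at a limma adjusted p under 0.05, 1946 with a higher and 1946 with a lower gi effect in root (5.66% each). The difference was at least 2-fold for 1623 of them and at least 4-fold for 344. Most of these calls came from a change in the shoot. In shoot, 7270 probe sets (21.2%) were called between gi and WT, 3760 higher (10.9%) and 3510 lower (10.2%), while in root 815 (2.37%) were called, 531 higher (1.55%) and 284 lower (0.827%). Accordingly, 3163 of the interaction calls (81.3%) were called in shoot and not in root, and 296 (7.61%) in root and not in shoot. Another 47 (1.21%) were called in both tissues in the same direction with a different size, and 304 (7.81%) were called in neither tissue on its own. In 82 probe sets (0.239% of those tested) the gi effect was called in both tissues in opposite directions. The balance between the tissues depended on the settings. With array weights by tissue, 5087 probe sets were called in shoot and 1454 in root. Across the probe sets tested, the root and shoot effects had a Pearson's r of 0.174 and a Spearman's rho of 0.0479, given as a description. Of the calls, 3654 fell among the 29326 probe sets with signal in both tissues, 12.5% of these. In bulk samples such as these, fewer cells of a type and less RNA per cell cannot be told apart. The probe sets nearest to the threshold had an adjusted p of 0.04999 inside it (interaction log2 0.54) and 0.05001 outside it (0.575).

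**Figure D1:**
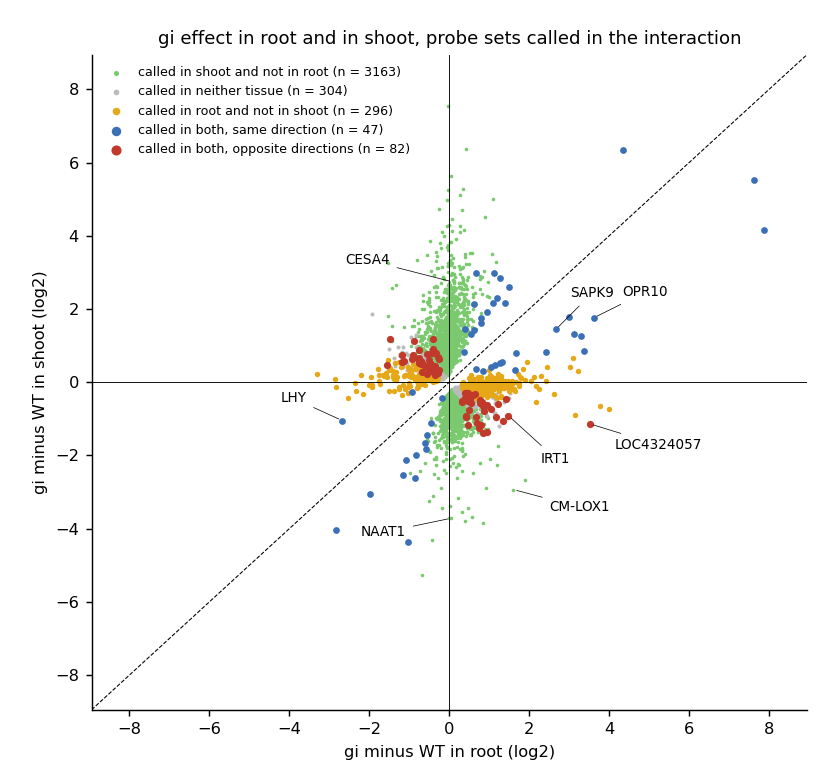
The difference between gi and WT in root (horizontal axis, log2) and in shoot (vertical axis, log2) for the 3892 probe sets called in the interaction, 1 point each, coloured by the tissue in which the gi effect itself was called. The 3163 green points lie along the vertical axis, the 296 orange points along the horizontal axis, and the 82 red points at the upper left and lower right, where the effects oppose each other. The dashed line marks equal effects.

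The 82 probe sets with opposite effects split into 39 that were higher in gi root and lower in gi shoot, and 43 that were lower in gi root and higher in gi shoot. They stand for 52 genes, of which 12 have a name, and 55 of the probe sets have a single gene in the annotation used. In all 82 the gi and WT groups lay apart in both tissues, which the calls favour. Of all probe sets tested, 21.7% had groups apart in root, 34.6% in shoot and 3.86% in both tissues in opposite directions. Most of the changes were small. The smaller of the 2 tissue changes had a median of 0.48 (log2), and 3 of the 82 changed at least 2-fold in both tissues. Among the 12 named genes, 8 were higher in gi root and lower in gi shoot (IRT1, PHOT1A, NRAMP4, MADS18, SK1, AKT1, HK5 and OsCASPL2D1) and 4 were lower in gi root and higher in gi shoot (INO1, SSI2, MADS27 and OsNrx1-2).

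IRT1, the rice iron-regulated transporter that takes up ferrous iron in roots, had a large reversal. Its signal was 941, 816.9 and 756 in WT root and 2455, 2905 and 1839 in gi root. In shoot it was 334, 291 and 360.2 in WT and 127, 193 and 185 in gi. All gi root arrays lay above the WT root arrays and all gi shoot arrays below the WT shoot arrays. The rise in root was 1.48, limma adjusted p = 0.000865 and the change in shoot -0.92, limma adjusted p = 0.00331, so that the effects differed by 2.40, SE 0.26, limma adjusted p = 0.000146. A second metal transporter gene, NRAMP4, belongs to the NRAMP family that moves divalent and trivalent metal ions. It read 1217, 1088 and 1185 in WT root, 1562, 1603 and 1667 in gi root, 4713, 3695 and 4226 in WT shoot and 1718, 1902 and 1972 in gi shoot. Without overlap in either tissue, it was 0.47 higher in gi root and -1.16 in gi shoot on the log2 scale (interaction 1.63, SE 0.13, limma adjusted p = 2.7e-05). Of its 5 probe sets, 4 were called higher in the interaction, all 5 had a positive value, and 1 was called in opposite directions, under 17 of the 24 alternative settings.

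PHOT1A encodes a phototropin, a blue light receptor that steers growth, chloroplast movement and stomatal opening. It was bright in shoot, with 23190, 19874 and 20284 in WT and 12251, 14079 and 15566 in gi. In root it was 1028, 898 and 1061 in WT and 2018, 2468 and 2601 in gi. The gi arrays were thus above WT in root and below WT in shoot, again without overlap (root 1.23, limma adjusted p = 5.83e-05; shoot -0.60, limma adjusted p = 0.00219; interaction 1.83, SE 0.16, limma adjusted p = 4.32e-05). INO1, the myo-inositol phosphate synthase that makes the precursor of inositol phosphates and phytate, went the other way. Its signal was 3980.1, 4086 and 3844 in WT root and 2593, 3026 and 2888 in gi root, against 2568, 2427 and 2712 in WT shoot and 3608, 3533 and 3883 in gi shoot. Lower in gi root (-0.49, limma adjusted p = 0.00348) and higher in gi shoot (0.51, limma adjusted p = 0.000323), it had an interaction of -1, SE 0.10, limma adjusted p = 0.000114. The tissue order of INO1 was inverted between the genotypes, root above shoot in each WT array and shoot above root in each gi array. IRT1, PHOT1A and INO1 were called in opposite directions under all 24 alternative settings.

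Among the reversed genes that have only a locus number, LOC4324057 had the largest interaction and root change, and its function is not annotated in the tables used here. Its signal was 84.8, 88.4 and 103 in WT root and 1218, 1167 and 1262 in gi root. In shoot it was 423, 459 and 575 in WT and 166, 233 and 239 in gi. The gi arrays were far above WT in root and below WT in shoot (root 3.52, limma adjusted p = 7.44e-08; shoot -1.14, limma adjusted p = 0.00033; interaction 4.65, SE 0.23, limma adjusted p = 9.91e-07), under all 24 alternatives. LOC4344909 was also higher in gi root and lower in gi shoot (0.95 and -1.36, interaction 2.31, limma adjusted p = 0.000238), and all 6 of its probe sets were called higher in the interaction, 2 of them with opposite effects. LOC4345432 rose by 0.85 from a low root level and changed by -1.39 in shoot (interaction 2.24, limma adjusted p = 0.000163), but its other 2 probe sets were not called in the interaction. Lower in gi root and higher in gi shoot were LOC4325617 (interaction -1.63, limma adjusted p = 0.000933), LOC4349339 (-1.63, limma adjusted p = 0.0026) and LOC4331329 (-1.58, limma adjusted p = 0.00505). Each of these 3 has at least 1 further probe set that was not called in opposite directions. The reversal was called under 20 of the 24 alternatives for LOC4344909, 16 for LOC4345432, 18 for LOC4325617, 15 for LOC4349339 and 7 for LOC4331329.

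Of the other named reversals, MADS18, a flowering-promoting MADS-box factor, read 347, 332 and 577 in WT root and 793, 706 and 726 in gi root, and 636, 600.0 and 497 in WT shoot and 362, 428 and 295 in gi shoot. Its groups did not overlap in either tissue (interaction 1.51, SE 0.28, limma adjusted p = 0.00476), but both tissue changes were called in only 6 of the 24 alternatives. MADS27, a MADS-box factor of the nitrate-responsive ANR1 group, was 1810.4, 1824 and 1656 in WT root and 1071, 1228 and 1256 in gi root, and 112, 128 and 153 in WT shoot and 191, 176 and 175 in gi shoot. It went opposite to MADS18 (interaction -0.99, SE 0.17, limma adjusted p = 0.00325), with both changes called in 11 of 24 alternatives, and its second probe set was not called. AKT1, an inward potassium channel of roots, was 0.42 in gi root and -0.96 in gi shoot (interaction 1.38, limma adjusted p = 9.36e-05, reversed in 12 of 24), on a probe set whose type can also pick up related transcripts. SK1, a shikimate kinase on the route to aromatic amino acids, was 0.90 and -0.66 (interaction 1.56, limma adjusted p = 0.00313, 14 of 24).

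SSI2, a stearoyl-ACP desaturase of fatty acid synthesis, was -0.48 in gi root and 0.46 in gi shoot (interaction -0.94, limma adjusted p = 0.00146, 17 of 24). OsNrx1-2, a nucleoredoxin, was -0.33 and 0.79 (interaction -1.12, limma adjusted p = 4.15e-05, 17 of 24). HK5, a histidine kinase, was 0.39 and -0.30 (interaction 0.69, limma adjusted p = 0.000696, 22 of 24), and its second probe set was called in shoot and not in root. OsCASPL2D1, a CASP-like membrane protein, was 0.46 and -0.29 (interaction 0.75, limma adjusted p = 0.00259, 13 of 24). These last changes were each below 2-fold in both tissues.

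**Figure D2:**
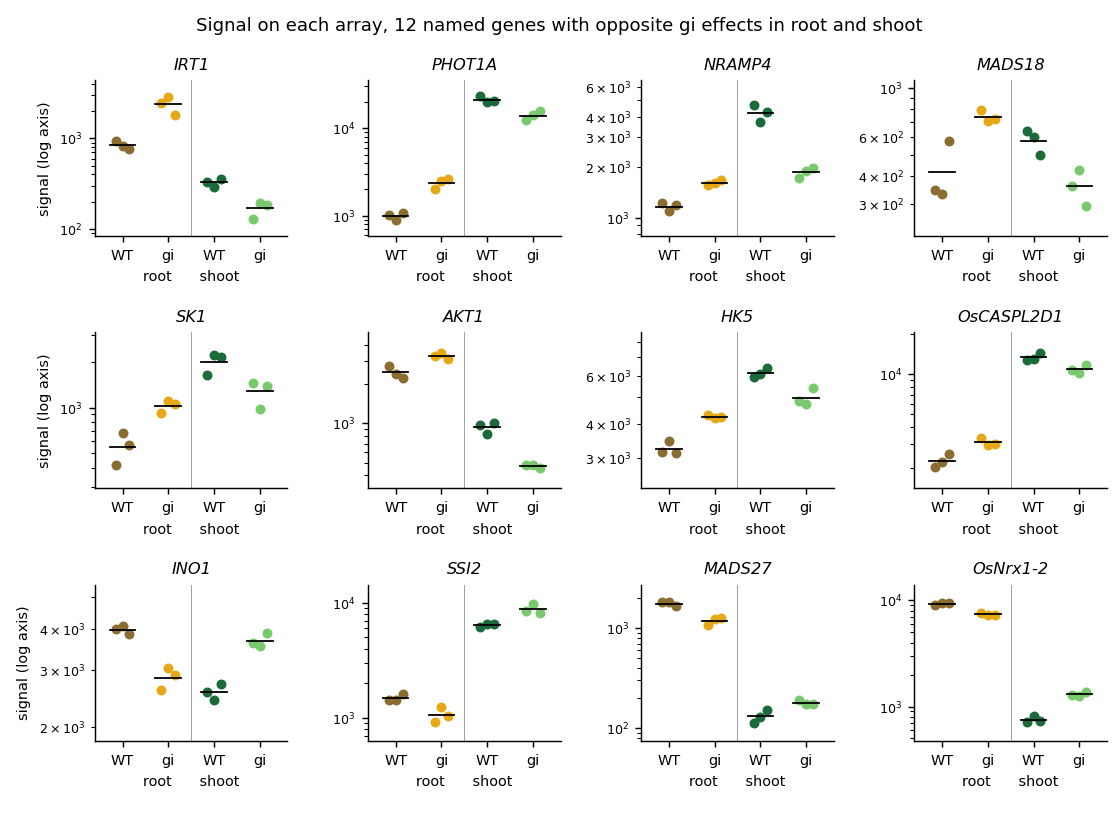
Signal of the 12 named genes with opposite gi effects on each of the 12 arrays (vertical axes, signal units on a log scale that differs between panels), with 3 points per group and a line at the mean. In the 8 genes from IRT1 to OsCASPL2D1 the gi points lie above WT in root and below WT in shoot, and in the 4 genes of the last row the order is inverted in both tissues.

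The pho2 arrays give side values for the same genes, with the caution that both mutants are compared with the same WT arrays. In pho2, IRT1 was 1.75 in root and -1.02 in shoot (log2 against WT), PHOT1A 1.01 and -0.79, and INO1 -0.39 and 1.59. LOC4324057 was 3.31 and -1.33. All of these pho2 values passed limma's test in the fit of 18 arrays. By contrast, MADS27 in pho2 was -0.02 in root and 0.17 in shoot, and LOC4325617 was -0.09 and 0.19, none of which passed.

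The arrays of pho2 also give a tissue order that did not enter any gi effect. Of all probe sets tested, 46.3% were brighter in pho2 shoot than in pho2 root. Among the 39 reversed probe sets with a rise in gi root, 26 (66.7%) were brighter in shoot, and among the 43 with a fall in gi root, 28 (65.1%) were. Among the 192 probe sets called higher in gi root and not called in shoot, 165 (85.9%) were brighter in shoot, whereas among the 104 called lower in gi root 49 (47.1%) were. Most of the probe sets raised in gi root alone were therefore ones that are brighter in shoot. The filter used the mean over root and shoot arrays, so a probe set dim in root could pass it on its shoot signal. Such a probe set can be called higher in gi root but hardly lower, which may set part of the split between 85.9% and 47.1%. Of the 296 probe sets called in root and not in shoot, 262 had signal in both tissues. The part of this limit in the split was not tested.

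Probe sets that are bright in shoot were more often called higher than lower in gi root. Of 609 probe sets brighter by at least 5 log2 units in pho2 shoot than in pho2 root, 132 were called higher in gi root and 8 lower, and 79.3% had a positive value with a median of 0.37. Of 496 probe sets brighter by at least 5 log2 units in pho2 root than in pho2 shoot, 71 were called higher in gi shoot and 29 lower, and 60.1% had a positive value with a median of 0.12. Both sets were chosen to be far dimmer in the tissue where they were counted, and a dim probe set can hardly show a fall. These splits are therefore partly set by the choice. Of the 8 shoot markers, 6 had a higher mean in gi root than in WT root, of which GLO1, RBCS and CAB2R passed the test. RCABP89, a chlorophyll-binding protein gene, had means of 431 and 1240, CAB2R, of the same group, 6607 and 12140, and the Rubisco small subunit gene RBCS 69.4 and 144. As a share of the WT shoot level, the rise was 1.98% for RCABP89, 9.9% for CAB2R, 0.244% for RBCS, 1.45% for the glycolate oxidase gene GLO1, 0.556% for PSAH and 0.102% for the sugar transporter gene SWEET1B. PSAG was called lower in gi root (means of 371 and 232, log2 -0.63, limma adjusted p = 0.00982), and RBCS1, too dim to be tested, had means of 3.73 and 1.84. These shares differ widely between markers, and the part of shoot RNA in the values of gi root was not tested. For the reversed genes the same share was 476% in IRT1 and 231% in LOC4324057, whose gi root level exceeded that of WT shoot, 88% in AKT1, 55.9% in MADS18, 10.6% in NRAMP4 and 6.47% in PHOT1A.

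**Figure D3:**
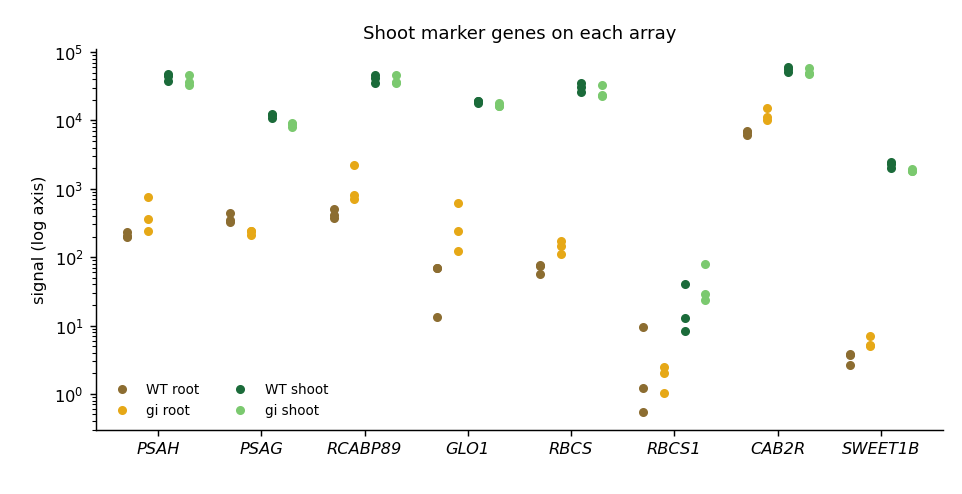
Signal of 8 shoot marker genes (horizontal axis) on each of the 12 arrays (vertical axis, signal units on a log scale), with 3 points per group. On the root arrays 6 of the 8 markers had a higher mean in gi than in WT, PSAG and RBCS1 a lower one, and all but RBCS1 stayed far below their shoot level.

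Of the probe sets called in root and not in shoot, the named ones included 3 photosynthesis genes. CAB2R read 6884, 6853 and 6083 in WT root and 10205, 15021 and 11184 in gi root (interaction 0.97, SE 0.18, limma adjusted p = 0.00553), and RBCS 75.1, 75.9 and 57.1 and 146, 174 and 112 (interaction 1.12, SE 0.24, limma adjusted p = 0.0115). GLO1 was 13.2, 69.5 and 68.9 in WT root and 123, 239 and 614 in gi root. It was spread widely in root and was 16166 to 19386 in shoot, and its call (interaction 2.42, limma adjusted p = 0.0336) ended under 12 of 24 alternatives. Of 6 photosynthesis genes tested, 3 were called higher in the interaction and 0 lower, against 11.3% of all probe sets and 18.9% of named genes. There were 5 calls without gi root replicate 1. With quantile normalization, without the intensity trend or without any single WT shoot array there were 2. Only 1 of the 4 RBCS probe sets was called, 2 of the 4 having a negative value, and a second probe set of GLO1 and one of CAB2R were not called.

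HAK4 and LOGL3, called higher in root and not in shoot, differed in their shoot level. HAK4, a potassium transporter of the HAK family, was 23.5, 82.2 and 39.8 in WT root and 461, 308 and 211 in gi root, and at most 30.0 on any shoot array (root 2.45, limma adjusted p = 0.00921). Its interaction (2.03, limma adjusted p = 0.0456) ended under 16 of 23 alternatives. LOGL3, related to enzymes that activate cytokinins, went from 48.6 ± 25.9 to 272 ± 155 in root (SD, n = 3), far under its shoot level of 2656 ± 315 (interaction 1.97, limma adjusted p = 0.026, not called in 4 of 24 alternatives). The gibberellin 20-oxidase gene 20ox2, for an enzyme of gibberellin synthesis, was lower in gi root and not called in shoot (root -1.39, limma adjusted p = 0.009213; interaction -1.49, limma adjusted p = 0.01454). MT2C, for a metallothionein, rose in root (0.79, limma adjusted p = 0.03018; interaction 0.81, limma adjusted p = 0.04689).

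Genes that GI loss moved the same way in both tissues, but not equally, included clock genes. LHY, a MYB factor expressed in the morning, had 3377, 3439 and 3080 in WT root and 523, 521 and 461 in gi root. In shoot it had 12281, 12423 and 11616 in WT and 5961, 5625 and 5961 in gi. The fall was larger in root (-2.68) than in shoot (-1.05), with no overlap in either tissue (interaction -1.63, SE 0.10, limma adjusted p = 5.92e-06). PRR95, a pseudo-response regulator of the clock, was higher in gi in both tissues and more so in root, with 1501, 1352 and 1577 in WT root, 3192, 3956 and 4063 in gi root, 17896, 15934 and 16604 in WT shoot and 25412, 24796 and 23683 in gi shoot (1.33 in root, 0.55 in shoot, interaction 0.77, SE 0.13, limma adjusted p = 0.00255). Of 6 clock genes tested, these 2 were called in the interaction (33.3%, against 11.3% of all probe sets and 18.9% of named genes). The other 4 were not called, GI among them. A difference in the hour of harvest between tissues or genotypes was not tested.

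SAPK9, a stress-activated SnRK2 protein kinase of abscisic acid signalling, rose from 292 ± 29.6 to 1951 ± 297 in root and from 189 ± 33.5 to 537 ± 31.1 in shoot (SD, n = 3). The rise was larger in root (2.67) than in shoot (1.45), an interaction of 1.23, SE 0.21, limma adjusted p = 0.00293. OPR10, named as an oxophytodienoate reductase, read 16.7, 31.1 and 47.7 in WT root and 533, 546 and 566 in gi root, and 18.8, 13.8 and 22.4 in WT shoot and 41.6, 165 and 132 in gi shoot. It was called higher in both tissues, but the difference between them (1.86, limma adjusted p = 0.0423) was lost in 13 of 24 alternatives. GATA20, a GATA-type transcription factor, fell in both tissues, by more in shoot (-1.45) than in root (-0.57; interaction 0.89, SE 0.18, limma adjusted p = 0.0074).

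LOC9268308 was picked after its values had been seen, as a locus with a large rise in both tissues. On its brighter probe set the signal was 40.5, 55.2 and 48.0 in WT root and 12500, 11960 and 13010 in gi root, and 5.0, 10.5 and 9.66 in WT shoot and 1038, 1113 and 1170 in gi shoot. The gene was dim in both WT tissues, and each gi root array was brighter than each gi shoot array. Its 2 probe sets had interactions of 3.69 and 2.09.

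The largest differences among named genes came from shoots. NAAT1, nicotianamine aminotransferase, makes the precursor of the mugineic acids that grasses secrete to bind iron. It read 1183, 2942 and 3033 in WT shoot and 196, 112 and 159.7 in gi shoot, while in root it was 1438, 1151 and 1244 in WT and 1115, 889 and 2302 in gi. The fall in shoot was large (-3.72, limma adjusted p = 2.92e-05), and the root groups overlapped (0.05, limma adjusted p = 0.992; interaction 3.77, SE 0.52, limma adjusted p = 0.000916). CM-LOX1, a lipoxygenase, had 1554, 1859 and 2371 in WT shoot and 97.3, 154 and 805 in gi shoot. In root it was 176, 132 and 155 in WT and 503, 508 and 482 in gi, groups that lie apart in the opposite direction although the root change did not pass the test (1.60, limma adjusted p = 0.163). Its interaction of 4.53, SE 0.73, limma adjusted p = 0.00227 was the highest among named genes. BURP2, a BURP-domain protein gene, dropped in shoot from 6382 ± 733 to 1555 ± 102 (SD, n = 3; interaction 2.36, limma adjusted p = 0.000506), and its brighter second probe set fell in both tissues (interaction 1.15). GRXC10, a glutaredoxin, fell in shoot from 3407 ± 884 to 1522 ± 231 (interaction 1.99, limma adjusted p = 0.00504).

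At the other end, 8 named genes rose in gi shoot and were not called in root. TUB8, a beta-tubulin, was 54.7, 75.3 and 64.1 in WT shoot and 773, 1367 and 297 in gi shoot, against 6429 to 11862 on the root arrays (interaction -3.41, SE 0.55, limma adjusted p = 0.00231). CHS, chalcone synthase, the entry enzyme of flavonoid synthesis, was 308, 316 and 248 in WT shoot and 3655, 6501 and 1031 in gi shoot (interaction -3.18, SE 0.71, limma adjusted p = 0.013), and its other 2 probe sets, both dimmer, were not called. VIT1.2, a vacuolar iron transporter, was 829, 633 and 194 in WT shoot and 2948, 4386 and 3368 in gi shoot (interaction -3.01, SE 0.59, limma adjusted p = 0.00684). In all 3 genes every gi shoot array lay above every WT shoot array, with a wide spread between the gi shoot arrays in TUB8 and CHS. GER5 (interaction -3.74, limma adjusted p = 0.0224) was not called in 5 of 24 alternatives. VLN4, an actin-binding villin (-2.90, limma adjusted p = 0.00127), 4CLL7, a 4-coumarate-CoA ligase-like enzyme (-2.73, limma adjusted p = 1.19e-05), MADS1, a floral organ MADS-box factor (-2.71, limma adjusted p = 0.00759), and CESA4 (-2.62, limma adjusted p = 0.00106) made up the rest. VLN4 read 14.2, 8.88 and 2.45 in WT shoot, below the pseudocount of 16, and its second probe set was not called. Over the alternatives its interaction ran from -4.37 to -1.65, and that of MADS1, also dim, from -3.99 to -1.59.

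Cellulose synthases rose together in gi shoot. CESA1, CESA3 and CESA8 build primary walls and CESA4, CESA7 and CESA9 secondary walls. CESA1 read 264, 337 and 335 in WT shoot and 2187, 2676 and 724 in gi shoot, against 8509 to 11382 on the root arrays (interaction -2.34, SE 0.49, limma adjusted p = 0.00912). CESA3 read 754, 945 and 771 and 4591, 5337 and 2037 (interaction -1.94, SE 0.36, limma adjusted p = 0.00543), and CESA8 223, 284 and 254 and 1277, 1464 and 559.8 (interaction -1.91, SE 0.37, limma adjusted p = 0.0063). CESA4 read 23.1, 57.0 and 21.4 and 311, 371 and 232 (interaction -2.62, SE 0.37, limma adjusted p = 0.00106). In each the gi shoot arrays lay above the WT shoot arrays and below the root arrays. CESA7 (-1.93, limma adjusted p = 0.0368), CESA9 (-2.09, limma adjusted p = 0.02141) and CESA6 (-1.70, limma adjusted p = 0.01537) were also called. The same direction was seen for CSLF6, which makes mixed-linkage glucan (-2.25, limma adjusted p = 0.009323), for the beta-expansin EXPB3, a wall-loosening protein (-2.51, limma adjusted p = 0.009205), and for EXPB7 (-1.37, limma adjusted p = 0.009657) and CSLA1 (-1.62, limma adjusted p = 0.04146).

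Of 49 cell wall genes tested, 12 were called lower and 1 higher in the interaction (26.5% against 11.3% of all probe sets and 18.9% of named genes), with a median of -0.60 against 0.05. Without gi shoot replicate 3 there were 18 lower and 2 higher. The lower calls numbered 8 without the intensity trend, WT root replicate 1, gi root replicate 3 or gi shoot replicate 2. In shoot 17 of the 49 were called higher and 3 lower, and in root 0 were called. Of 2279 named genes, 415 were called higher and 297 lower in shoot, and 57 higher and 31 lower in root. In 11 of the 12 lower calls the shoot rise itself was called, and in each of these 11 the lowest of the gi shoot arrays was replicate 3, as in 56.3% of the 1720 probe sets of all kinds with that pattern. Without that array all 11 remained called (median interaction -2.37 against -1.93), without gi shoot replicate 1 9 did, and without replicate 2 8 did. A second probe set each of CESA1, CESA3 and CESA4 was not called, that of CESA4 with an interaction of -0.01. Beside this rise, 71 of the 496 probe sets bright in root were called higher in gi shoot and 29 lower (14.3% and 5.85%, against 10.9% and 10.2% of all probe sets), and 0 of the 9 root markers were called higher there and 4 lower. The 496 were chosen to be far dimmer in shoot, where a fall can then hardly be called, so their split is partly set by the choice. The part of root RNA in the values of gi shoot was not tested.

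**Figure D4:**
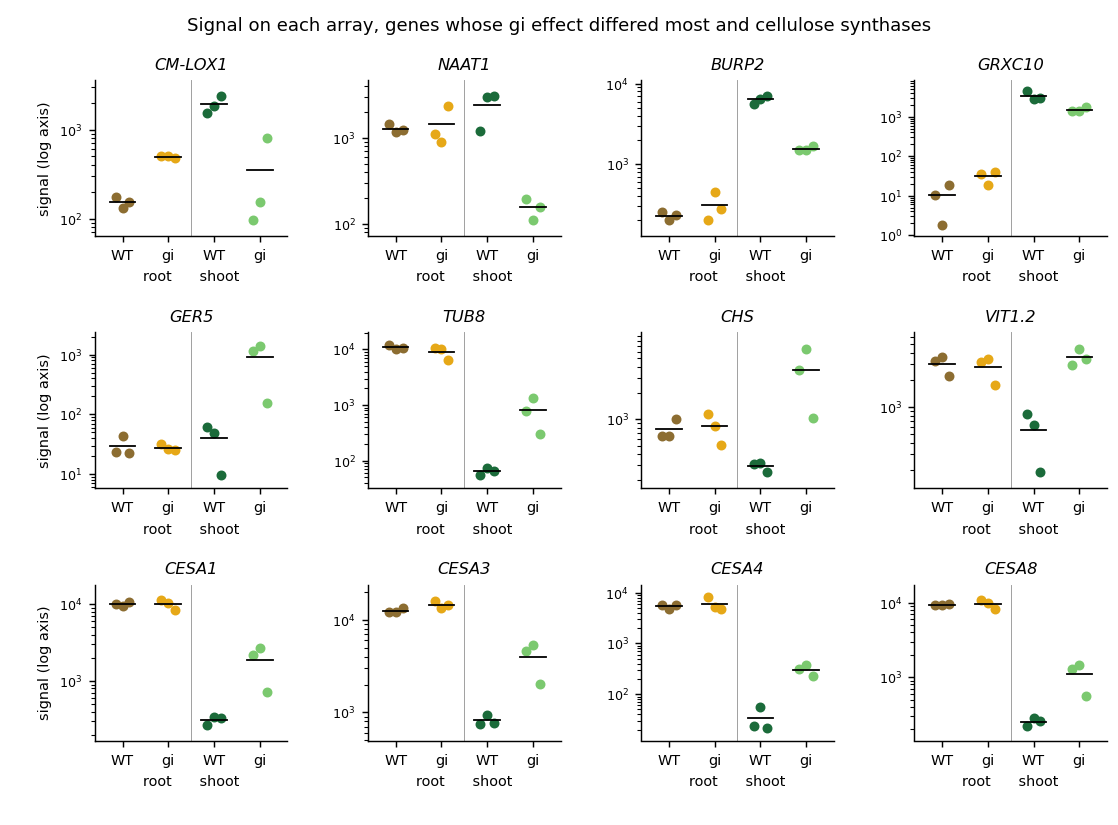
Signal on each of the 12 arrays (vertical axes, signal units on log scales that differ between panels) for 8 of the named genes with the largest differences and 4 cellulose synthases, with 3 points per group and a line at the mean. CM-LOX1, NAAT1, BURP2 and GRXC10 are lower in gi shoot, and the other 8 genes are higher in gi shoot and show no called change in root. In TUB8, CHS, GER5 and the CESA genes the third gi shoot array is the lowest of its group.

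Some unnamed loci changed by more than any named gene, and they were picked after their values had been seen. LOC4351887 was 2.56, 8.69 and 231 in WT shoot and 4391, 10430 and 16150 in gi shoot, and at most 11.9 on any root array (interaction -7.58, SE 1.09, limma adjusted p = 0.00119). LOC4330177 was 53.1, 32.9 and 34.9 in WT shoot and 4023, 4325 and 537 in gi shoot, with 13580 to 14880 on the root arrays (interaction -5.29, SE 0.79, limma adjusted p = 0.00149). LOC4336657 was 10120, 16840 and 21160 in WT shoot and 422, 264 and 492 in gi shoot (interaction 4.59, SE 0.35, limma adjusted p = 2.22e-05). These loci thus show a shoot rise of a gene that is dim in root, a shoot rise of a gene that is bright in root, and a shoot fall.

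Of 26 genes tested in the iron list, 4 were called higher in the interaction (NAAT1, IRT1, NRAMP4 and NRAMP3) and 0 lower. This share of 15.4% was near the 11.3% of all probe sets and below the 18.9% of named genes. The list was filled by gene names, and its NRAMP members are metal transporters not limited to iron. Without gi shoot replicate 3 there were 6 higher and 1 lower, and 3 higher with median centring or without WT shoot replicate 1. NRAMP3, a manganese transporter, was -0.54 in gi shoot and 0.20 in gi root, the latter not called (interaction 0.74, limma adjusted p = 0.0191). The metal transport list, which shares NRAMP3 and NRAMP4 with it, had 4 higher and 3 lower calls of 34 (20.6%, near the share of named genes). The lower ones were VIT1.2 and the metallothioneins MT4C and MT1B, small metal-binding proteins. MT4C was 45.8, 80.4 and 71.1 in WT shoot and 291, 375 and 218 in gi shoot, against 15529 to 20936 on the root arrays (interaction -1.97, limma adjusted p = 0.000736), and MT1B followed with -1.10, limma adjusted p = 0.000815.

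Of 22 potassium transporters, 9 were called (40.9%, against 11.3% of all probe sets and 18.9% of named genes), 7 higher and 2 lower, with a median interaction of 0.09. This count depended on the settings, with 3 to 11 calls and a count lower by over 1.5 times in 12 of the 24 alternatives, 3 with median centring or without the intensity trend. Leaving out any single array other than gi root replicate 3, WT shoot replicate 2 and gi shoot replicate 3 gave 4 or 5. HAK17 rose in gi root from 131, 129 and 149 to 355, 329.9 and 389 and was not called in shoot (interaction 1.21, SE 0.17, limma adjusted p = 0.000827), though its second probe set was not called. HAK23 fell in gi shoot from 2445, 2391 and 2629.7 to 1091, 1108 and 1242 and was not called in root (interaction 0.92, SE 0.13, limma adjusted p = 0.00125). HAK1, a high-affinity potassium transporter of roots, was -1.39 in gi shoot and -0.41 in gi root, the latter not called (0.99, limma adjusted p = 0.03805). HAK25 (0.67, limma adjusted p = 0.0217) and HAK11 (0.73, limma adjusted p = 0.04134) were called in the interaction and in neither tissue alone, as were the 2 lower ones, HAK9 (-0.59, limma adjusted p = 0.03318) and HAK16 (-0.62, limma adjusted p = 0.04963). AKT1 and HAK4, described above, complete the 9.

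Few phosphate genes were tested. Of 5 PHT1 Pi transporters, OsPht1;1 was called higher and OsPht1;4 lower (40%, against 11.3% of all probe sets and 18.9% of named genes). With median centring or without the intensity trend, 0 of the 5 were called. OsPht1;1 was 2337, 2218 and 2406 in WT root, 2473, 2809.8 and 2626 in gi root, 834, 954 and 860.0 in WT shoot and 519, 541 and 768 in gi shoot (interaction 0.73, limma adjusted p = 0.0204), and its dimmer second probe set was called in the other direction (-2.45). The direction for this gene is therefore uncertain. OsPht1;4 differed by -0.78, limma adjusted p = 0.0269 with neither tissue called alone. Of 5 Pi signalling genes, 1 (20%) was called higher, PHO1-3 of the PHO1 family of Pi exporters (0.79, limma adjusted p = 0.0411). That call was lost in 17 of 24 alternatives. Of 3 SPX genes, Pi sensors, 0 were called in the interaction, and SPX4 had an adjusted p of 0.0528.

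Nitrogen genes were called in 3 of 17 cases (17.6%, below the 18.9% of named genes), in 0 without WT root replicate 1, in 1 with median centring or without the intensity trend, and in 5 without gi shoot replicate 3. The ammonium transporters AMT2-3 (-1.34, limma adjusted p = 0.0241) and AMT1-2 (-0.71, limma adjusted p = 0.0271) had a lower gi effect in root, and the glutamine synthetase GLN1-2 a higher one (0.33, limma adjusted p = 0.0375). The calls of AMT1-2 and GLN1-2 were lost in 8 and 12 of 24 alternatives. Of 24 aquaporins, channels for water and small solutes, 4 were called lower and 0 higher (16.7%, against 11.3% of all probe sets and 18.9% of named genes), and 2 with median centring or without the intensity trend. PIP2-5 was 9905, 6877 and 7112 in WT root, 5542, 4162 and 4104 in gi root, 60.8, 99.9 and 127 in WT shoot and 130.0, 220.0 and 279 in gi shoot. Its groups lay apart in opposite directions, of which the shoot rise passed the test and the root change did not (interaction -1.78, SE 0.38, limma adjusted p = 0.00966). PIP2-6 (-1.22, limma adjusted p = 0.0072) and PIP2-1 (-0.35, limma adjusted p = 0.0134, with all 3 of its probe sets called lower) also rose in shoot, and the silicon channel Lsi6 (-1.45, limma adjusted p = 0.0383) was called in the interaction in 12 of 24 alternatives only.

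Jasmonate genes were called in 11 of 32 cases (34.4%, against 11.3% of all probe sets and 18.9% of named genes), 4 higher and 7 lower. In gi shoot 13 of the 32 rose and 4 fell, against 10.9% and 10.2% of all probe sets. Of 2279 named genes, a closer background for this list, 415 were called higher and 297 lower in gi shoot. With median centring 6 of the 32 were called in the interaction, and without the intensity trend 7. The JAZ proteins repress jasmonate responses and are themselves induced by the hormone. JAZ12 was 96.8, 134 and 142 in WT shoot and 503, 709 and 546 in gi shoot, and 592 to 981 on the root arrays (interaction -1.73, SE 0.23, limma adjusted p = 0.000762). JAZ10 (-2.36, limma adjusted p = 0.007552), JAZ11 (-2.04, limma adjusted p = 0.002885), JAZ7 (-1.23, limma adjusted p = 0.00255) and JAZ6 (-0.71, limma adjusted p = 0.006615) also rose in shoot and were not called in root. The receptor genes COI1B (0.70, limma adjusted p = 0.00228) and COI1 (0.34, limma adjusted p = 0.04175) fell in gi shoot, from 7609 ± 471 to 4793 ± 224 for COI1B (SD, n = 3). With CM-LOX1 and OPR10 these 2 were the 4 higher calls.

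Of 6 WRKY factors, which regulate defence among other processes, 2 rose in gi shoot, 1 fell and 3 were not called. In the interaction 50% of them were called, against 11.3% of all probe sets and 18.9% of named genes. WRKY76 was 91.8, 151 and 119 in WT shoot and 434, 510.1 and 744 in gi shoot, and 2426 to 3224 on the root arrays (interaction -1.97, SE 0.27, limma adjusted p = 0.000888). WRKY62, like WRKY76 a repressor of defence in rice, had an interaction of -1.67, limma adjusted p = 0.0285 (not called in 5 of 24 alternatives), and WRKY9 had the opposite sign (0.48, limma adjusted p = 0.0285, lost in 7 of 24). Without the intensity trend, WT root replicate 1 or gi root replicate 1, 1 of the 6 was called in the interaction. Of 16 diterpenoid phytoalexin genes, 2 were called lower and 0 higher (12.5%, near the 11.3% of all probe sets and below the 18.9% of named genes). CYP71Z6 rose in gi shoot from 268, 229 and 178 to 1269, 1152 and 767 and was 13.8 to 20.7 on the root arrays (interaction -2.34, SE 0.32, limma adjusted p = 0.000873), and the call of the diterpene synthase gene KSL5 (-1.82, limma adjusted p = 0.0415) was lost in 14 of 23 alternatives. Among 11 defence protein and chitinase genes, 4 were higher in gi shoot, against 10.9% of all probe sets and 415 of 2279 named genes. In the interaction 0 of the 11 were called.

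Of 41 heat shock genes, 8 were called lower and 0 higher (19.5%, against 11.3% of all probe sets and 18.9% of named genes). The lower calls numbered 4 without WT shoot replicate 1, 5 without WT root replicate 1, gi root replicate 2 or the intensity trend, and 1 higher call appeared with array weights or without gi shoot replicate 1. In gi shoot 14 of the 41 were called higher and 0 lower, and in gi root 1 higher and 0 lower. Of all probe sets, 10.9% were called higher and 10.2% lower in gi shoot. Among 2279 named genes, 415 were called higher and 297 lower in gi shoot, and 57 higher and 31 lower in gi root. The class B heat shock factor HSFB2A was 218, 226 and 222 in WT shoot and 410.2, 508 and 515 in gi shoot (interaction -0.83, SE 0.14, limma adjusted p = 0.0031), and HSFB1 76.5, 113 and 113 and 261, 308 and 531 (interaction -1.54, SE 0.30, limma adjusted p = 0.00663). A second probe set of HSFB2A was not called. The small heat shock proteins HSP17.7 (-1.13, limma adjusted p = 0.00713), HSP26.2 (-1.55, limma adjusted p = 0.00741), HSP18.6 (-1.96, limma adjusted p = 0.0207) and HSP24.1 (-1.08, limma adjusted p = 0.04324), chaperones that bind unfolded proteins, rose in shoot too. Each of these genes was brighter in WT root than in WT shoot. Ribosomal protein genes gave 6 lower and 0 higher calls of 24 (25%, against 11.3% of all probe sets and 18.9% of named genes), with small differences. This count fell to 1 without the intensity trend, 2 with median centring, and 3 without WT root replicate 2 or 3. RPL18 was 2953 ± 197 in WT shoot and 7355 ± 771 in gi shoot (SD, n = 3; interaction -0.86, limma adjusted p = 0.0103), and RPL30 (-0.36, limma adjusted p = 0.00611), RPS4 (-0.43, limma adjusted p = 0.0111) and RPS3A (-0.29, limma adjusted p = 0.0217, all 4 probe sets called lower) followed. A second probe set of RPS4 was not called (-0.20, limma adjusted p = 0.305). Of 13 endoplasmic reticulum folding genes, 2 were called, both higher and with a fall in shoot (15.4%, below the 18.9% of named genes). They were the protein disulfide isomerases PDIL2-1 (0.62, limma adjusted p = 0.0141), whose second probe set was not called, and PDIL5-2 (0.78, limma adjusted p = 0.0211).

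**Figure D5:**
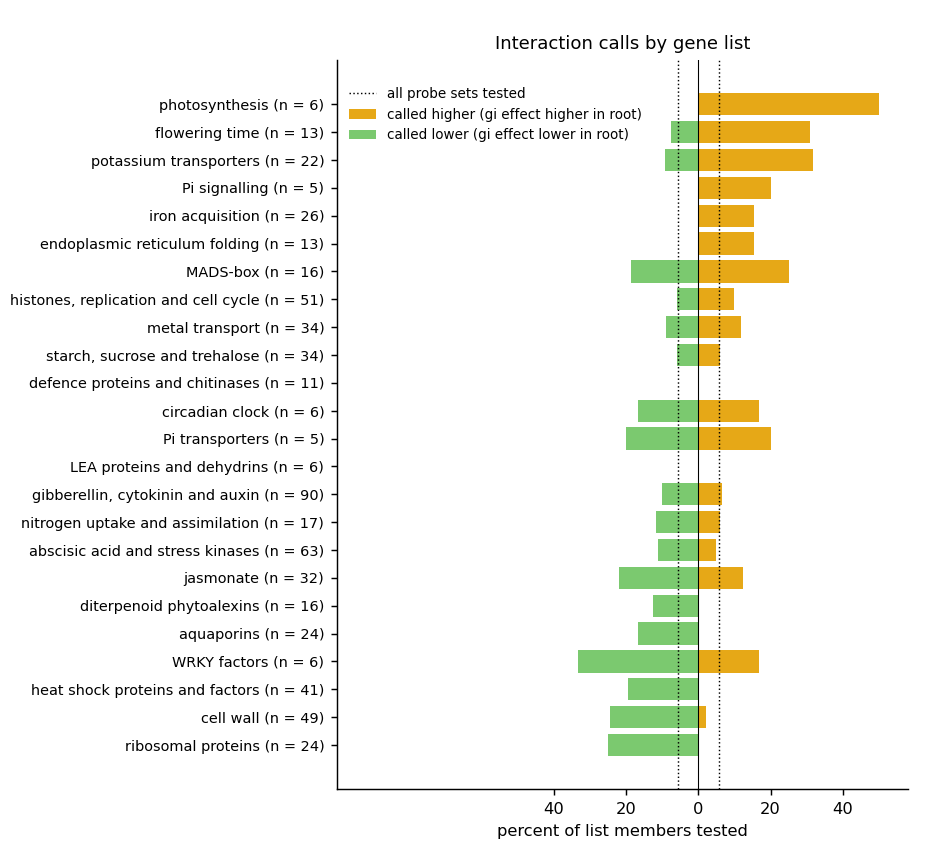
Percent of tested members of each gene list (vertical axis, number tested in brackets) that were called in the interaction, higher to the right and lower to the left (horizontal axis, percent). Dotted lines mark the share of all probe sets tested, 5.66% in each direction. The lists hold named genes only, of which more were called (18.9%), 168 of 2279 higher and 262 lower. The lines are therefore too low as a background for the lists, above all for lower calls. The share of heat shock genes, 19.5%, was near that of named genes. Cell wall, heat shock and ribosomal protein genes were called mainly lower, the ribosomal count falling to 1 without the intensity trend, and iron and photosynthesis genes had no lower calls, with 6 genes in the latter.

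Flowering genes with a call were mostly MADS-box factors. Of 13 flowering genes tested, 4 were called higher and 1 lower (38.5%), and of 16 MADS-box genes, 4 higher and 3 lower (43.8%), with members in common and against 18.9% of named genes. With median centring or without WT shoot replicate 1, 3 of the 13 flowering genes were called. MADS56, a repressor of flowering in rice, was 496, 546 and 649.8 in WT root and 1081, 1063 and 839.7 in gi root, and 3835, 3388 and 3508 in WT shoot and 3172, 2987 and 2750.3 in gi shoot. The rise in root passed the test and the shoot change did not (interaction 1.07, SE 0.16, limma adjusted p = 0.00179). MADS50, an activator of flowering, was called in neither tissue alone (0.58, limma adjusted p = 0.0177). MADS55 fell in gi shoot (1.09, limma adjusted p = 0.01598), and MADS57 was called in neither tissue (-1.06, limma adjusted p = 0.0432). The heme oxygenase gene HO1, needed for phytochrome pigment, fell slightly in gi shoot (0.47, limma adjusted p = 0.03079).

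Hormone and stress signalling genes were called in both directions. Of 90 gibberellin, cytokinin and auxin genes, 6 were called higher and 9 lower (16.7%, below the 18.9% of named genes), and 9 in all without WT root replicate 2 or WT shoot replicate 1 or 3. CKX11, a cytokinin oxidase, dropped in gi shoot from 2607, 2285 and 2798 to 837, 729 and 947 and was 1941 to 2310.2 on the root arrays (interaction 1.75, SE 0.14, limma adjusted p = 3.31e-05). The Aux/IAA repressor IAA1 also fell in gi shoot (1.01, limma adjusted p = 0.00185), while IAA31 rose there (-1.83, limma adjusted p = 0.000853), and the response regulator RR4 differed by -0.86, limma adjusted p = 0.00508. The second probe sets of CKX11 and IAA1, both dimmer, were not called. Of 63 abscisic acid and stress kinase genes, 3 were called higher and 7 lower (15.9%, also below the share of named genes). ABIL1, an Abl interactor-like gene that entered this list by its name alone, was 816, 963 and 831 in WT shoot and 2485, 2454 and 2206 in gi shoot with level root values of 916 to 1065 (interaction -1.46, SE 0.13, limma adjusted p = 5.38e-05). SAPK7 rose in gi shoot (-1.54, limma adjusted p = 0.000398), in contrast to SAPK9, which rose in both tissues and more in root, and SAPK1, which was called higher in root alone (0.87, limma adjusted p = 0.003981). The protein phosphatase gene OsPP2C15 rose in shoot (-0.84, limma adjusted p = 0.00314).

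Cell cycle genes were called in 8 of 51 cases, 5 higher and 3 lower (15.7%, against 18.9% of named genes). The count was 2 with median centring, 4 without the intensity trend, gi root replicate 2 or WT shoot replicate 1, and 5 without WT root replicate 1. The cyclin-dependent kinases CDKG-2 (0.73, limma adjusted p = 0.00176) and CDKF-1 (0.47, limma adjusted p = 0.0074) fell in gi shoot, and KRP4, of the kinase inhibitor family (-0.83, limma adjusted p = 0.00471), and the replication protein RPA14 (-0.50, limma adjusted p = 0.00897) rose there. A second probe set of KRP4 and 1 of the 3 of CDKG-2 were not called. Sugar genes were called in 4 of 34 cases (11.8%), near the share of all probe sets, in 7 without gi shoot replicate 3 and in 2 with median centring. TPP1, a trehalose phosphatase (-1.04, limma adjusted p = 0.00539), and the alpha-amylase AMY1.5 (-1.33, limma adjusted p = 0.013) rose in gi shoot, and the sucrose synthases Sus2 (0.40, limma adjusted p = 0.00921) and SUS4 (0.52, limma adjusted p = 0.0361, lost in 12 of 24 alternatives) fell there. Among 6 LEA proteins and dehydrins, 0 were called.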

How the data were processed

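Total RNA of root and shoot was hybridised to Affymetrix rice arrays, with 3 arrays in each of 6 groups taken from the sample titles. The authors deposited an intensity (linear signal) for each probe set on each array, made with MAS5 per the submitters' processing notes, whose version is not given in the sources. Column trimmed means were all near 500, as MAS5 scaling gives. All value columns were used (0 left over).

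Of 57381 probe sets, 123 Affymetrix controls were left out. Values were used as log2(value + 16), which understates changes of dim probe sets. The 12 arrays of WT and gi were fitted as 4 group means with limma 3.58.1 under R 4.3.3 (lmFit, then eBayes with a trend on intensity). Probe sets with a mean under the 40th percentile were left out, leaving 34355. Tests were two-sided, Benjamini and Hochberg adjustment ran over all probe sets tested, and a call is an adjusted p under 0.05. The fit was tested on simulated data. Precision is limited by the number of arrays.

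The effect in each tissue comes from the same fit and sorted the calls into classes. Names come from the platform annotation and a RefSeq table: 22436 probe sets had 1 gene, 95 had several, and 2453 of 17905 genes have a name other than a locus number. Named in the text are GI, the 8 highest and 8 lowest interactions of named genes, up to 12 reversed and 4 same direction genes, 6 reversed loci, and, per list, up to 4 calls of smallest p. Other members stand as examples of their list. The members and lists were chosen with earlier results of these data known, and lists were filled by gene names, with the brightest probe set per gene. The alternatives were other pseudocounts, filters, normalizations, array weights, fits, replicate blocks and leaving out each array. A search of promoters for motifs was not run, and sequences are not used here.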

Additional observations from a re-analysis of the deposited data

Results flagged for a closer look

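The gi effect differed between root and shoot, by limma's test of the difference itself, in 3892 probe sets. The log2 differences of 94 genes or loci among them, those chosen by the naming rule, are gathered here, with the gi effect in root less that in shoot. With opposite called effects in the 2 tissues and a gi effect higher in root were LOC4324057 (4.65), IRT1 (2.4), LOC4344909 (2.31), LOC4345432 (2.24), PHOT1A (1.83), NRAMP4 (1.63), SK1 (1.56), MADS18 (1.5) and AKT1 (1.38). Smaller values were those of OsCASPL2D1 (0.746) and HK5 (0.69). With opposite called effects in the 2 tissues and a gi effect lower in root were LOC4349339 (-1.63), LOC4325617 (-1.62), LOC4331329 (-1.58), OsNrx1-2 (-1.12), INO1 (-1), MADS27 (-0.994) and SSI2 (-0.945). With called effects of the same direction and unequal size and a gi effect higher in root were OPR10 (1.85), SAPK9 (1.22), GATA20 (0.885) and PRR95 (0.773). With called effects of the same direction and unequal size and a gi effect lower in root were LHY (-1.63).

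With a called effect in root and not in shoot and a gi effect higher in root were GLO1 (2.42), HAK4 (2.03), LOGL3 (1.97), HAK17 (1.21), RBCS (1.12), MADS56 (1.07) and CAB2R (0.972). With a called difference and no call in either tissue and a gi effect higher in root were HAK25 (0.675) and MADS50 (0.58). With a called difference and no call in either tissue and a gi effect lower in root were Lsi6 (-1.45), OsPht1;4 (-0.784) and AMT1-2 (-0.708). With a called effect in shoot and not in root and a gi effect higher in root were CM-LOX1 (4.53), NAAT1 (3.77), BURP2 (2.36), GRXC10 (1.99), CKX11 (1.75), IAA1 (1.01), HAK23 (0.923), PHO1-3 (0.786) and PDIL5-2 (0.785). Smaller values were those of NRAMP3 (0.736), CDKG-2 (0.731), OsPht1;1 (0.725), COI1B (0.699), PDIL2-1 (0.62), SUS4 (0.518), WRKY9 (0.478), CDKF-1 (0.467) and Sus2 (0.399). The lowest was that of GLN1-2 (0.332). With a called effect in shoot and not in root and a gi effect lower in root were GER5 (-3.74), TUB8 (-3.41), CHS (-3.18), VIT1.2 (-3.01), VLN4 (-2.9), 4CLL7 (-2.73), MADS1 (-2.71), CESA4 (-2.62) and CYP71Z6 (-2.34). Below these came CESA1 (-2.34), WRKY76 (-1.97), MT4C (-1.97), CESA3 (-1.93), CESA8 (-1.91), IAA31 (-1.83), KSL5 (-1.82), PIP2-5 (-1.78) and JAZ12 (-1.72). Below these came WRKY62 (-1.67), HSP26.2 (-1.55), HSFB1 (-1.54), SAPK7 (-1.54), ABIL1 (-1.46), AMT2-3 (-1.34), AMY1.5 (-1.33), JAZ7 (-1.23) and PIP2-6 (-1.22). Below these came HSP17.7 (-1.13), MT1B (-1.1), TPP1 (-1.04), RR4 (-0.862), RPL18 (-0.86), OsPP2C15 (-0.837), KRP4 (-0.83), HSFB2A (-0.828) and RPA14 (-0.502). Below these came RPS4 (-0.429), RPL30 (-0.363), PIP2-1 (-0.352) and RPS3A (-0.288). No explanation of these differences was tested.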

How the results depend on the processing

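All 3892 interaction calls kept their sign in each of the 24 alternatives that tested them, but counts moved. In several alternatives the sign could not change, because the group means stayed the same. These were the other filters, the fit without the intensity trend, the fit of all 18 arrays and the replicate blocks. Median centring gave 2197 calls (941 higher, 1256 lower), 2021 in both tissues, 40 reversed and 73 list members, against 3892, 3654, 82 and 123. Without the intensity trend there were 1237 higher calls, 2349 in both tissues, 30 reversed, 76 list members and 419 root calls, against 815 root calls. Array weights gave 171 reversed, 1794 root and 5925 shoot calls, and weights by tissue 1454 root and 5087 shoot calls. The main fit had 7270 shoot calls. Without the filter, 54 were reversed. Leaving out 1 array gave 2624 (without WT shoot replicate 1) to 4803 calls (without gi shoot replicate 3), 1204 to 2455 of them higher with the same arrays left out. It gave 40 (without WT root replicate 1) to 101 reversed (without gi root replicate 1) and 399 to 914 root calls with the same arrays left out. The cause of these shifts was not tested. In the fit with the replicate number as a block there were 3540 calls and 69 reversed, and with a replicate block within genotype 4223 and 84 (consensus correlation 0.0453). The numbers did not pair the arrays, with correlations of -0.105 to 0.0683 over 18 same-number pairs. Of the reversed probe sets, 14 were reversed under every alternative and 20 whenever 1 array was left out, so a reversal outside these depends on the settings. Spread was widest in gi shoot, and dim probe sets limit what could be called.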

Other observations

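The hybridisation controls differed between the tissues. The BioB spike read 28.6 to 42.4 on the WT and gi root arrays for its 3-prime probe set, and 832 to 1024 on the shoot arrays. Root and shoot arrays therefore differ in a technical respect that cannot be told apart from the tissue. Each gi effect was computed within a tissue. Within root that spike overlapped between WT and gi, and within shoot it was 919 to 1024 in WT and 832 to 881 in gi. Of 18 spike probe sets, 16 overlapped between WT and gi in root and 2, both of CreX, were higher in gi (14270 to 14940 in WT and 15090 to 15830 in gi for the 3-prime one). In shoot 12 overlapped and 6 were lower in gi. Their part in the gi effects was not tested.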
